A study of Mus musculus with 11 samples.

Results

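The distal miRNA cluster of the imprinted Dlk1-Dio3 domain, which runs from miR-379 to miR-410 on mouse chromosome 12, was compared between mouse embryonic stem (mES) cells with and without Trim71. Its members were chosen by name, as both arms of every listed hairpin carrying 1 of the 35 numbers that the cluster holds from miR-379 to miR-410, whatever its letter suffix. This gave 33 mature miRNAs from 24 hairpins among the 592 miRNAs of the table, 13 from the 5p and 20 from the 3p arm, and 13 of the 35 numbers had no member among the miRNAs analysed here. All 33 were fitted without a filter on low values.

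The study asked how the loss of Trim71, an RNA-binding protein of the tripartite motif family, changes the miRNAs of mES cells. The cells were male C57BL/6 mES cells cultured with serum and LIF, homozygous for a floxed Trim71 allele (labelled Trimfl/fl), in lines derived from mice that also carried a tamoxifen-inducible Cre at the Rosa26 locus. In the cells labelled Trim-/- the allele had been deleted with 4-hydroxytamoxifen at 500 nM for 2 days, according to the sample labels, followed by at least 7 days of culture, whereas the study's methods name a lower concentration and a solvent control for the Trimfl/fl cells. Both genotypes were enriched magnetically for the surface antigen SSEA-1 before harvest, and they came from 2 clones, so that each clone stands for 1 derived line. Clone 1 gave a Trim-/- and a Trimfl/fl library on each of days 1, 5 and 6, and clone E3 gave such a pair on each of days 3 and 4. A Trimfl/fl library of day 2 had no partner. Trim71 mRNA was not measured in these small RNA libraries, so that the genotype labels were not checked against it.

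The values are read counts normalized by the authors, corrected for batch and raised to 1 where they fell below it, and are called corrected normalized reads here. In each of the 33 members the Trim-/- and the Trimfl/fl value of 1 day added up to the same sum on all 5 days, within 0.1% where neither was at the floor. A pair therefore holds 1 difference, both genotypes have equal spreads unless a value was floored, and the groups of a member are separate exactly where Trim-/- was on the same side on all 5 days. In all 33 members the value of day 2 was within 0.1% of the average of the remaining Trimfl/fl libraries, so it adds no measurement and was left out of the main fit. Library totals lay between 2742673 and 4332525 in Trimfl/fl and between 3751519 and 5551715 in Trim-/-. The number of reads behind them is unknown, so that no counting interval can be given.

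The labelled cell type was compared with its marker miRNAs. The 27 arms of the miR-290 to miR-295 and miR-302 to miR-367 clusters, which mES cells express strongly, summed to between 1639121 and 2514204 in Trimfl/fl and between 2201627 and 3081141 in Trim-/-, and none of the 27 passed the thresholds in either direction. Markers of other cell types were present as well. The 8 mesenchymal arms (miR-143, miR-145a, miR-199a and miR-199b) summed to 13413 to 35331 in Trimfl/fl and 13640 to 35538 in Trim-/-, and the 6 of them outside miR-143 to 345 to 675 and 523 to 874. The 8 neural arms (miR-9, miR-124, miR-128 and miR-219a) summed to 3393 to 6715 in Trimfl/fl and 5927 to 9249 in Trim-/-. No marker of either list passed the thresholds, their median log2 fold changes were 0.15 and 0.55, and their part in the results below was not tested. No value is 0, because of the floor.

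The Dlk1-Dio3 domain is imprinted, and its miRNAs are cut from long noncoding transcripts made from the maternally inherited chromosome, among them Meg3, Rian and Mirg. A mature miRNA is 1 strand of a processed hairpin, and its seed, bases 2 to 8, pairs with target mRNAs. The domain is known for its activity in brain and placenta, for a silenced state in some cultured pluripotent lines, and for a reduced developmental potential of induced pluripotent cells in which it is silent. The cluster from miR-379 to miR-410 is known in neurons for roles in dendrite growth and synapse function, in particular through miR-134.

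The hairpins lie on the plus strand of GRCm38 (mm10) and span 34.7 kb, from chr12:109709060-109709125 (Mir379) to chr12:109743715-109743795 (Mir410). According to GENCODE M21, the 15 hairpins from Mir379 to Mir381, with 19 members, lie before the noncoding gene Mirg (chr12:109729764-109749460), and the 9 hairpins from Mir382 to Mir410, with 14 members, lie within it. Of those 9 hairpins 6 overlap a Mirg exon and 3 lie in its introns. No other miRNA of the table lies in the span.

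RefSeq (GRCm38.p6) gave a mature sequence for 31 of the 33 members, and miR-376c-3p and miR-485-5p are named only. The 31 carry 30 different seeds, so that the cluster is not 1 seed family. The first set shows the pairs of members that differ by few bases, since reads of one may have been assigned to the other and their separate values are uncertain. Capitals mark the seed.
miR-379-3p: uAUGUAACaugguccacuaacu
miR-411-3p: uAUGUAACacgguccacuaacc
miR-376a-3p: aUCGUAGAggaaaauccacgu
miR-376b-3p: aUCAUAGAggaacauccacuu
miR-300-3p: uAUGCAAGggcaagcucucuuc
miR-381-3p: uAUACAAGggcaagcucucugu
miR-543-3p: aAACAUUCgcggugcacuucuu
miR-495-3p: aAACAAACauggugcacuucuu

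miR-379-3p and miR-411-3p share their seed and differ at 2 of 22 positions. The other 3 pairs differ at 3 positions (miR-376a-3p and miR-376b-3p, and miR-300-3p and miR-381-3p) or at 4 (miR-543-3p and miR-495-3p), and here the seeds differ by 1, 1 and 2 bases. The second set shows the 12 members that, beside miR-376b-3p above, passed both thresholds of the genotype comparison, and miR-379-5p, the first member in genomic order, which did not. The seed is again in capitals.
miR-379-5p: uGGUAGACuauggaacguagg
miR-380-5p: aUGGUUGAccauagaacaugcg
miR-323-3p: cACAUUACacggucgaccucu
miR-329-5p: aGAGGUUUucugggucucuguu
miR-494-3p: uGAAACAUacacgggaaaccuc
miR-485-3p: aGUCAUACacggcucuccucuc
miR-154-3p: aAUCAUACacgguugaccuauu
miR-377-3p: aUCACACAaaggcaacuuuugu
miR-409-5p: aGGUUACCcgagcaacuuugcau
miR-409-3p: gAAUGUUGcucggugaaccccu
miR-369-5p: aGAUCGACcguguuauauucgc
miR-410-5p: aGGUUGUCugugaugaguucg
miR-410-3p: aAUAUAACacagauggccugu

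Some 3p members share a stretch that runs past the seed. The letters ACANGG, searched on the miRNA strand after the sequences had been read, occur in 9 of the 31 members with a sequence (29.0%) and in 17 of the 463 miRNAs of the table with one (3.67%). In miR-379-3p, miR-411-3p, miR-323-3p, miR-495-3p, miR-485-3p, miR-154-3p and miR-369-3p the match starts at base 7 and overlaps the seed, in miR-494-3p it starts at base 9 and in miR-381-3p at base 4. These 9 had log2 fold changes from -3.10 to -0.78, with a median of -1.51. Of the 9, 4 passed the thresholds downward, as did 13 of all 33 members and 4.56% of all 592 miRNAs.

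The cluster was a small part of the miRNAs in either genotype. Its members had a median level of 80.4 over the 10 paired libraries, against 142 over all 592 miRNAs, and 12 of the 33 lay above that median of the table. The levels ran from 9.11 (miR-410-5p) to 3167 (miR-381-3p), and miR-381-3p, miR-379-5p and miR-541-5p together held 62.0% of the summed level. Summed over all members, the cluster was at 0.312%, 0.296%, 0.394%, 0.352% and 0.449% of the library total in Trimfl/fl on days 1, 3, 4, 5 and 6. In Trim-/- the shares on the same days were 0.159%, 0.166%, 0.0888%, 0.159% and 0.0443%. Trim-/- was below its partner on all 5 days, least in absolute terms on day 3 and most on day 6. The library totals enter these shares. On the deposited scale the summed level in Trimfl/fl was 1.70, 1.64, 5.13, 1.09 and 8.78 times that in Trim-/-, so that day 5 was nearly equal, at 9643 and 8831, with library totals of 2742673 and 5551715. Without miR-381-3p the shares ran from 0.200% to 0.321% in Trimfl/fl and from 0.0184% to 0.113% in Trim-/-, so that the groups were separate with and without the most abundant member. Fewer cells that express the cluster and less of it per cell cannot be told apart in these bulk libraries.

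**Figure D1:**
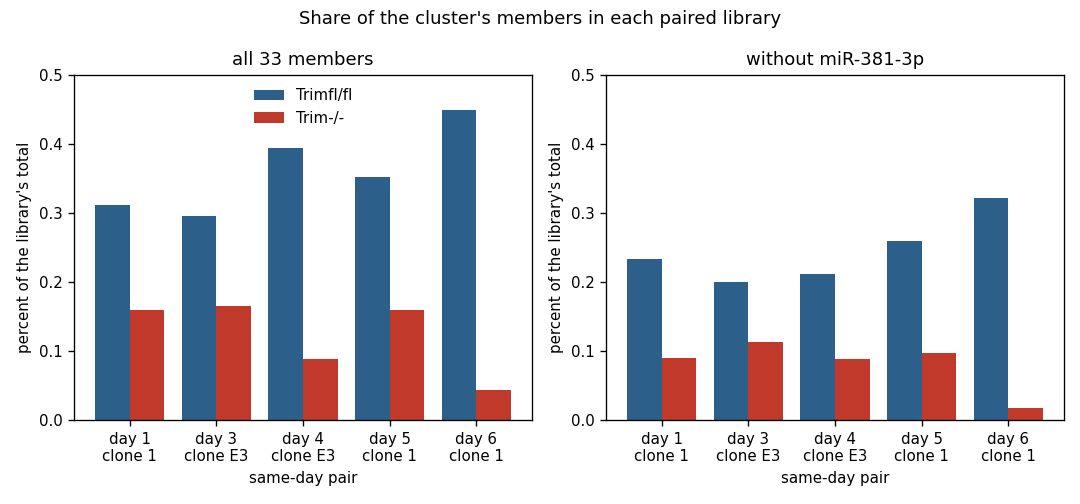
Share of the cluster's members in the summed corrected normalized reads of each paired library (percent, bars from 0), for all 33 members and without miR-381-3p, by day and clone. On all 5 days the Trim-/- bar is below the Trimfl/fl bar, from 0.166% against 0.296% on day 3 to 0.0443% against 0.449% on day 6.

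The fitted mean was lower in Trim-/- for all 33 members, whereas 48.8% of the 592 miRNAs of the table did. Their median log2 fold change was -2.02 against 0.03 over all miRNAs, and the single values ran from -3.99 to -0.69. These come from limma on log2(value + 1) with the day as a block, a scale on which the size depends on the pseudocount and the floor. The median of the members was -1.14 without day 6, -1.36 on untransformed values, -1.35 with a pseudocount of 10 and -1.40 over the 13 members without a floored value. The thresholds are those of the study, more than 1.5-fold and p under 0.05 before adjustment, and were passed by 13 of the 33 members downward (39.4%), against 4.56% of all miRNAs. The authors had kept miRNAs whose larger group mean reached 10, and 4 members (miR-380-5p, miR-154-5p, miR-377-3p and miR-410-5p) reached it only in Trimfl/fl, so that a lower value in Trim-/- was favoured by that filter. No member reached it only in Trim-/-, and over the table the numbers were 23 and 26. In a count added after the data were seen, without miRNAs of either kind, 10 of 29 members passed downward, against 3.87% of the remaining miRNAs of the table. No member passed upward, against 0.845% of all miRNAs. After Benjamini-Hochberg adjustment over the table by limma no member and 0% of the miRNAs had a p under 0.05, the smallest adjusted p of a member was 0.607, and unadjusted p-values under 0.05 numbered 13 among the members and 32 in the table. Without the day block 21 members passed downward, against 9.97% of all miRNAs, and 2 of the 33 had an adjusted p under 0.05 in limma, against 1.52% of all miRNAs. The 2 were miR-485-3p and miR-410-5p, of which the latter is in the table only through its Trimfl/fl mean. That fit treats the values of a pair as separate, although each pair holds 1 difference, so that its p-values are too small. Without the pair of day 1 or without that of day 6 the 13 became 6, and the 27 lower calls over all 592 miRNAs became 11 and 15. Whether the libraries of 1 genotype came from separate cultures is given only as a day number, so that p-values measure the spread between days within 2 clones.

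**Figure D2:**
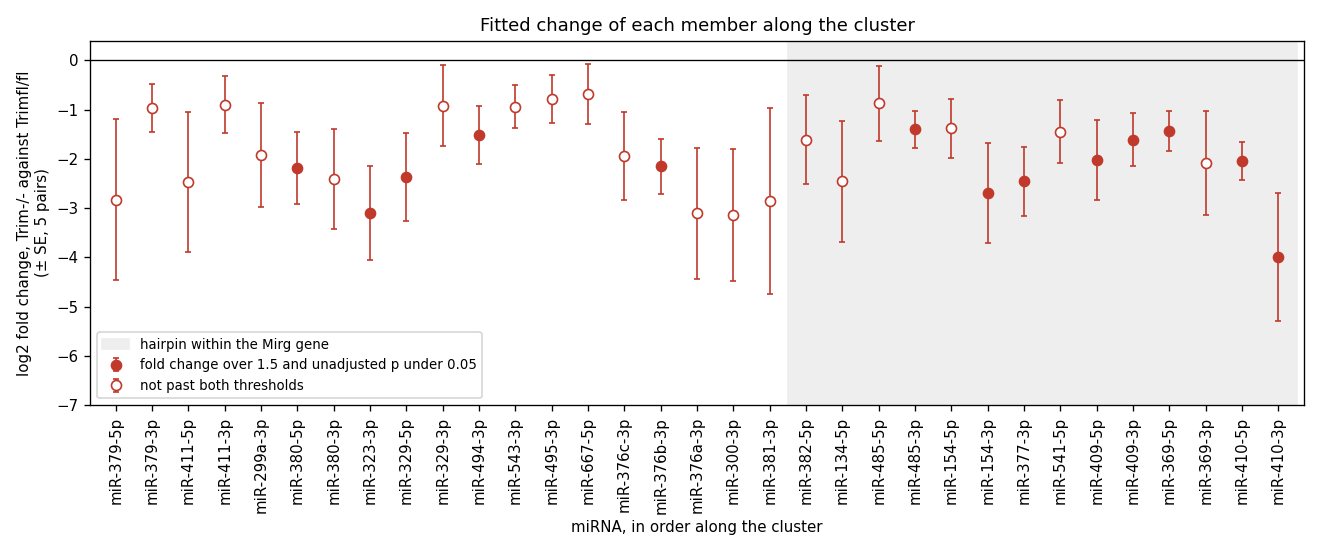
Fitted log2 fold change of Trim-/- against Trimfl/fl with its SE (5 pairs, limma with day as a block) for the 33 members in order along the cluster. Filled points passed both thresholds and the shaded members lie within Mirg. All 33 points lie under 0, between -3.99 (miR-410-3p) and -0.69 (miR-667-5p).

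Counted by sign alone, 14 of the 33 members (42.4%) were lower in Trim-/- on all 5 days, against 6.25% of all miRNAs. A further 17 were lower on 4 days and 2, miR-329-3p and miR-381-3p, on 3. The 14 include miR-377-3p and miR-410-5p, and the 17 include miR-380-5p and miR-154-5p. These members are in the table only through their Trimfl/fl mean, so that the filter favoured a lower value in Trim-/- for them. Day by day, 27, 33, 24, 27 and 33 members were lower in Trim-/- on days 1, 3, 4, 5 and 6, where the shares of all miRNAs were 51.2%, 50.8%, 49.7%, 50.2% and 49.0%. Of the 14 members lower on every day, 9 also passed the thresholds. The other 5 were miR-411-5p, miR-376c-3p, miR-376a-3p, miR-300-3p and miR-382-5p, and on day 1 miR-382-5p was all but equal, at 54.9 in Trim-/- and 55.1 in Trimfl/fl. For each of the 14 the exact permutation of genotypes within days gave a two-sided p of 0.063, the smallest that the 32 sign patterns of 5 pairs allow.

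**Figure D3:**
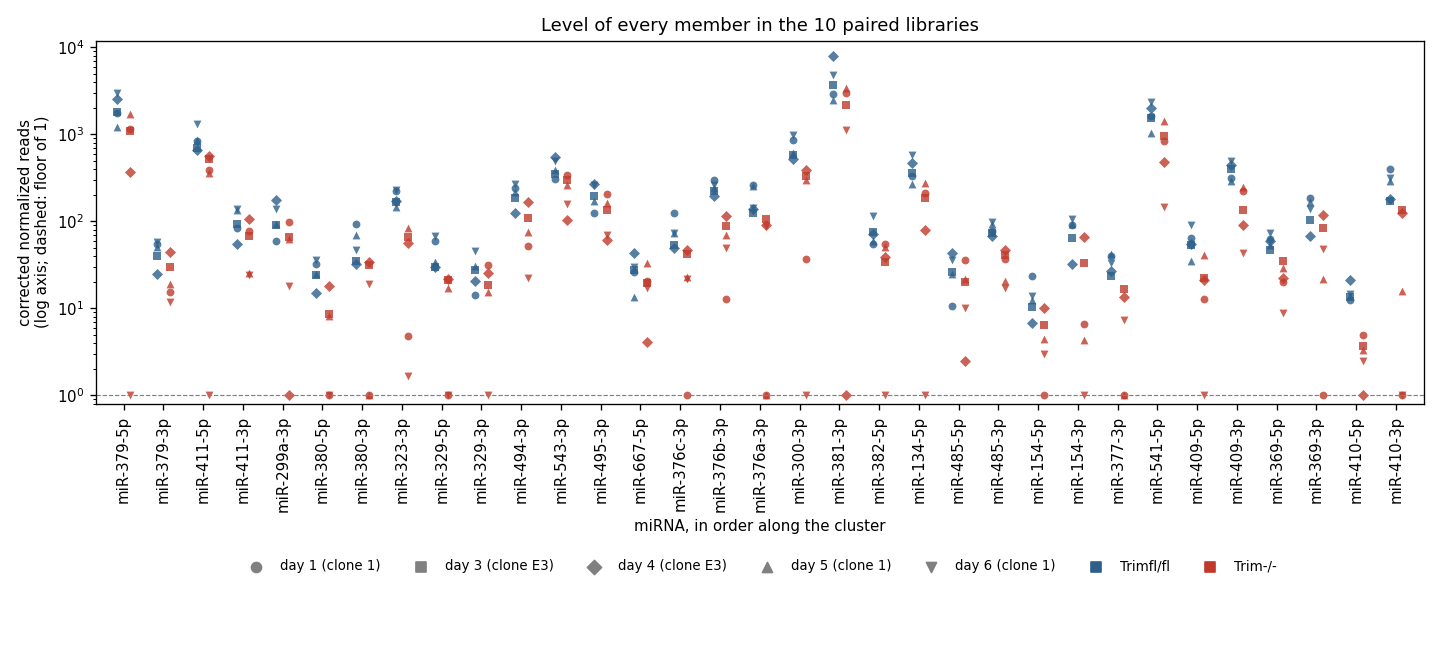
Level of each member in the 10 paired libraries (corrected normalized reads on a log axis, dashed line at the floor of 1), in order along the cluster, with Trimfl/fl in blue, Trim-/- in red and the day and clone by symbol. All 26 points on the floor are Trim-/- libraries, and 14 members have no overlap between the colours.

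The floor of 1 was reached only in Trim-/- among the members. Of their values 26 in Trim-/- and 0 in Trimfl/fl were floored, in 20 of the 33 members, and days 1, 3, 4, 5 and 6 held 9, 0, 3, 3 and 11 of them. Over the table the floored values were divided more evenly, 70 in Trim-/- and 51 in Trimfl/fl. A pair with a floored value has a log2 difference that depends on the floor and the pseudocount. Of the 13 members past the thresholds, 6 had no floored value: miR-323-3p, miR-494-3p, miR-376b-3p, miR-485-3p, miR-409-3p and miR-369-5p.

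Among the 5 of the 13 whose hairpins lie before Mirg, miR-376b-3p had the lowest unadjusted p. It belongs to the miR-376 group, whose precursors are known to be edited by adenosine deaminases in brain. On days 1, 3, 4, 5 and 6 it was at 300, 225, 196, 242 and 263 in Trimfl/fl and at 12.6, 87.4, 116, 69.8 and 49.8 in Trim-/-. The groups were separate, and Trim-/- was lowest on day 1. The log2 fold change was -2.15 with an SE of 0.56, an unadjusted p of 0.00862 and an adjusted p of 0.607 in limma, and it passed the thresholds with each pair left out in turn. Its neighbours miR-376c-3p and miR-376a-3p were also lower on all 5 days, at log2 fold changes of -1.94 ± 0.89 and -3.11 ± 1.32 (SE, 5 pairs), without passing the thresholds. In miR-376a-3p the Trim-/- values were at the floor on days 1 and 5 and at 107, 91.3 and 88.4 on days 3, 4 and 6, where Trimfl/fl was at 123, 139 and 142.

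miR-323-3p, a miRNA known from brain and placenta, was at 226, 165, 174, 148 and 229 in Trimfl/fl on the 5 days. In Trim-/- it was at 4.76, 65.3, 57.0, 83.0 and 1.66. Here days 1 and 6 were far below days 3, 4 and 5 in Trim-/-, and the groups were separate. Its log2 fold change was -3.10 ± 0.96 (SE, 5 pairs; unadjusted p = 0.0179 in limma), and it no longer passed without day 1. The lower-level miR-329-5p was at 58.9, 29.98, 29.9, 34.2 and 67.5 in Trimfl/fl, and in Trim-/- at the floor on days 1 and 6 and at 21.5, 21.6 and 17.2 on days 3, 4 and 5. It had a log2 fold change of -2.37 ± 0.90, and lost its call without day 1 or day 6.

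In miR-494-3p and miR-380-5p the groups overlapped, because on day 4 the Trim-/- value was the higher one of the pair. For miR-494-3p the day 4 values were 169 in Trim-/- and 125 in Trimfl/fl, and on the other 4 days Trim-/- lay between 22.1 and 110 and Trimfl/fl between 184 and 271. Its log2 fold change of -1.51 ± 0.59 kept its call only when day 4 was left out. The day 4 values of miR-380-5p, in the table only through its Trimfl/fl mean, were 18.1 and 14.9, and on the other days Trim-/- was between 1.00 and 8.63 and Trimfl/fl between 24.4 and 35.8, with a log2 fold change of -2.18 ± 0.73 that lost its call without day 1 or day 6.

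Within Mirg 8 of 14 members passed the thresholds downward and before it 5 of 19 did, where the share of all miRNAs was 4.56%. These counts include miR-377-3p and miR-410-5p within Mirg and miR-380-5p before it, which are in the table only through their Trimfl/fl mean. The median log2 fold changes were -1.81 within Mirg and -2.15 before it. Across the 33 members the order along the cluster and the log2 fold change had a Spearman correlation of -0.06. The members share libraries and, in part, transcripts, so that this is a description.

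The last hairpin of the cluster, Mir410, held the member with the lowest unadjusted p and the one with the lowest log2 fold change. miR-410-3p was at 397, 173, 182, 292.4 and 318 in Trimfl/fl on days 1, 3, 4, 5 and 6 and at 1.00, 135.6, 126, 15.8 and 1.00 in Trim-/-. Both days of clone E3 were near their Trimfl/fl partners, and the 3 days of clone 1 were far under them. The log2 fold change was -3.99 ± 1.30 (SE, 5 pairs; unadjusted p = 0.0216 in limma), and it lost its call without day 1, 5 or 6. miR-410-5p was at 12.3, 13.5, 21.2, 13.9 and 14.7 in Trimfl/fl and at 4.89, 3.71, 1.00, 3.35 and 2.51 in Trim-/-. This arm was the lowest member in level, is in the table only through its Trimfl/fl mean, and had log2 differences between -3.47 on day 4 and -1.18 on day 1. Its log2 fold change was -2.04 ± 0.39 (unadjusted p = 0.00178, adjusted p = 0.607 in limma), and the call was kept without each pair in turn.

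Of the other members within Mirg, miR-485-3p was at 78.5, 73.7, 68.3, 94.5 and 98.0 in Trimfl/fl and at 36.7, 41.5, 46.9, 20.7 and 17.1 in Trim-/-. The 2 groups were separate, and the log2 fold change was -1.40 ± 0.38 (SE, 5 pairs; unadjusted p = 0.00972 in limma). miR-369-5p was at 62.3, 47.0, 60.0, 53.1 and 73.3 in Trimfl/fl and at 19.9, 35.2, 22.2, 29.1 and 8.91 in Trim-/-, a log2 fold change of -1.43 ± 0.41. Both passed the thresholds with each pair left out. So did miR-377-3p, which is in the table only through its Trimfl/fl mean. Its Trimfl/fl values ran from 23.9 to 42.0 and its Trim-/- values ran from the floor on days 1 and 5 to 16.7, with a log2 fold change of -2.46 ± 0.71.

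The 2 arms of Mir409 both passed. miR-409-3p was at 316, 405, 450, 289 and 498 in Trimfl/fl and at 224, 135.8, 90.8, 251 and 43.0 in Trim-/-, and its groups were separate although days 1 and 5 differed little within their pairs. Its log2 fold change was -1.61 ± 0.54, and it lost its call without day 3, 4 or 6. miR-409-5p was at 63.9, 54.1, 55.1, 35.2 and 90.7 in Trimfl/fl and at 12.7, 22.5, 21.4, 41.4 and 1.00 in Trim-/-. On day 5 it was higher in Trim-/-, and its log2 fold change of -2.02 ± 0.81 passed only without day 5 among the 5 omissions. miR-154-3p ran from 32.3 to 108 in Trimfl/fl, and in Trim-/- it was at 6.63, 33.6, 65.5, 4.29 and 1.00. On day 4 it was higher in Trim-/-, where its partner was at 32.3, and its log2 fold change was -2.69 ± 1.01 (SE, 5 pairs; unadjusted p = 0.0365 in limma) and lost its call without day 1, 5 or 6.

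In the main fit the 3 most abundant members did not pass the thresholds. miR-381-3p was at 2947, 3738, 7892, 2503 and 4818 in Trimfl/fl on days 1, 3, 4, 5 and 6, and at 2997, 2205, 1.00, 3440 and 1125 in Trim-/-. On days 1 and 5 it was higher in Trim-/-, by 0.02 and 0.46 on the log2 scale, and on day 4 it was at the floor. The log2 fold change was -2.86 ± 1.89 (SE, 5 pairs; unadjusted p = 0.180 in limma), and -0.59 without day 4. miR-379-5p, the first member, was at 1747, 1813, 2548, 1217 and 3035 in Trimfl/fl and at 1168, 1102, 368, 1699 and 1.00 in Trim-/-, with a log2 fold change of -2.83 ± 1.64 and of -0.90 without day 6. miR-541-5p was at 1644, 1529, 2002, 1051 and 2331 in Trimfl/fl and at 834, 949, 476, 1427 and 147 in Trim-/-, a log2 fold change of -1.45 ± 0.64 (unadjusted p = 0.0647 in limma). Its value was -0.82 without day 6, and without day 5 it passed the thresholds at -1.93 (unadjusted p = 0.0280 in limma). All 3 were higher in Trim-/- on day 5, without division by the library totals, which were 5551715 in Trim-/- and 2742673 in Trimfl/fl on that day. On the untransformed scale the means in Trimfl/fl were 2.24, 2.39 and 2.23 times those in Trim-/-. Fitted on that scale, miR-379-5p and miR-541-5p passed the thresholds (unadjusted p = 0.0458 and 0.0364 in limma), and miR-381-3p did not (0.0863).

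miR-134-5p, known in neurons for limiting dendritic spine size and in mES cells for lowering pluripotency factors when overexpressed, was at 333, 359, 463, 267 and 574 in Trimfl/fl. In Trim-/- it was at 210, 184, 79.3, 276 and 1.00. Day 5 was the exception to the lower level in Trim-/-, and the log2 fold change of -2.46 ± 1.23 did not pass the thresholds.

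The members with the log2 fold change nearest 0 were miR-667-5p, miR-495-3p and miR-485-5p, at -0.69 ± 0.61, -0.78 ± 0.49 and -0.87 ± 0.76 (SE, 5 pairs). miR-667-5p was at 26.4, 27.5, 43.0, 13.4 and 30.01 in Trimfl/fl and at 20.6, 19.5, 4.07, 33.7 and 17.0 in Trim-/-. miR-495-3p was at 125, 196, 272, 171 and 263 in Trimfl/fl and at 208, 136.95, 61.2, 162 and 70.0 in Trim-/-. miR-485-5p was at 10.6, 26.3, 43.8, 24.7 and 36.3 in Trimfl/fl and at 35.8, 19.99, 2.50, 21.6 and 10.02 in Trim-/-. In each of the 3 the genotypes overlapped, Trim-/- was higher on 1 day (day 5 for miR-667-5p, day 1 for the other two), and day 4 had the lowest Trim-/- value.

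Both arms were listed for 9 hairpins, which allows a comparison within 1 precursor. In Trimfl/fl the 5p arm was the more abundant for Mir379 (45.6 times the 3p arm), Mir411 (8.63 times) and Mir329 (1.604 times). The 3p arm was the more abundant for Mir380 (2.10 times), Mir485 (2.91 times), Mir154 (5.82 times), Mir409 (6.55 times), Mir369 (2.25 times) and Mir410 (18.01 times). In 8 of the 9 the more abundant arm had the lower log2 fold change, with Mir409 as the exception. This count depends on the log scale with its floor. By the ratio of the untransformed group means the more abundant arm differed more in 5 of the 9, and Mir380, Mir409, Mir369 and Mir410 were the exceptions. Among the less abundant arms, miR-380-5p, miR-154-5p and miR-410-5p are in the table only through their Trimfl/fl mean. That filter favoured a lower value in Trim-/- for them, and both counts include them. The difference between the arms (5p minus 3p, on the log2 scale) ran from -1.86 for Mir379 to 1.95 for Mir410, and no exact permutation within days gave a two-sided p under 0.250 in the 9 comparisons, where the smallest possible is 0.063. The 5p members as a group had a median log2 fold change of -2.02, with 5 of 13 past the thresholds downward. The 3p members had one of -2.01, with 8 of 20, where the share of all miRNAs was 4.56%. Of those counted, miR-380-5p and miR-410-5p among the 5p and miR-377-3p among the 3p members are in the table only through their Trimfl/fl mean.

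The pairs differed in which members were lowest. The median log2 difference of the members was -1.60, -0.53, -0.76, -1.02 and -2.86 in the pairs of days 1, 3, 4, 5 and 6, while the median of the other 559 miRNAs stayed between 0.00 and 0.07. On days 3 and 6 all 33 members were lower in Trim-/-. On day 4, 9 were higher, led by miR-154-3p at 1.00 on the log2 scale, and 8 of these 9 were lower on day 1. On day 1, 6 members were higher, led by miR-485-5p at 1.67, and 5 of these 6 were lower on day 4. On day 5, 6 members were higher, led by miR-667-5p at 1.27, and all 6 were lower on day 4. Of all 33 members 27 were lower on day 1 and 24 on day 4, so that these overlaps lie near or little above the members' own shares. Of all 592 miRNAs 51.2% were lower on day 1 and 49.7% on day 4.

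**Figure D4:**
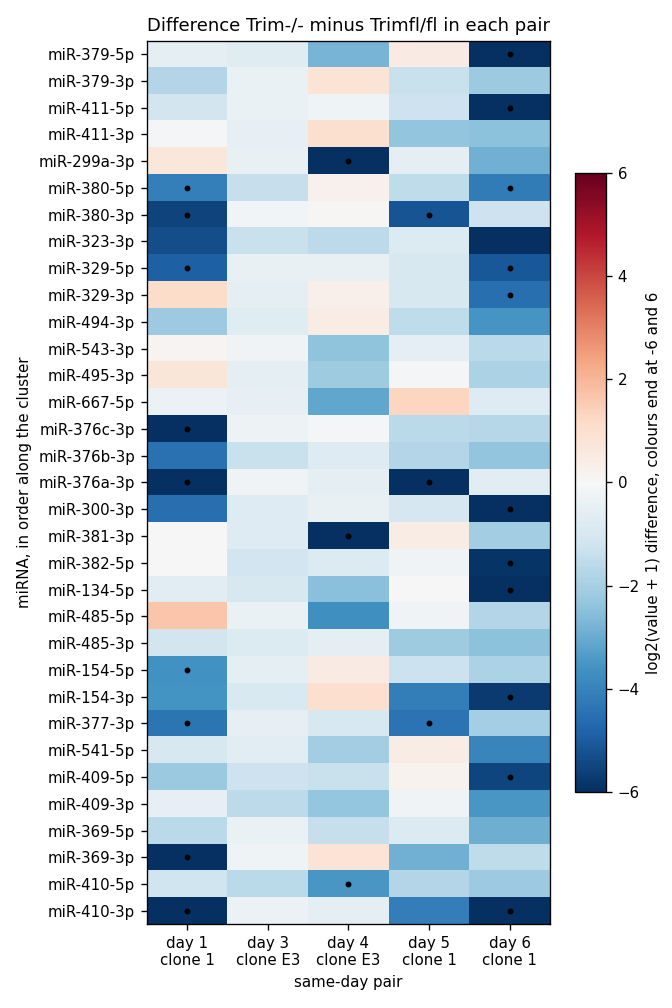
Difference in log2(value + 1) of Trim-/- minus Trimfl/fl for each member (in order along the cluster) in each same-day pair, with blue for lower in Trim-/-, red for higher and a dot where the Trim-/- value is at the floor. Colours end at -6 and 6. Days 3 and 6 hold no red cell, and 9 cells are red on day 4.

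Opposite orders on days 1 and 4 were seen within the cluster. Across the 33 members the differences of day 1 and day 5 had a Spearman correlation of 0.64, those of day 1 and day 4 one of -0.49, and those of day 4 and day 5 one of -0.67. Over the other 559 miRNAs the same 3 correlations were 0.41, -0.10 and -0.36. These 3 of the 10 pairs of days were picked after their values were seen. The remaining pairs of the same clone gave -0.01 in the members and 0.35 in the others (days 1 and 6), -0.24 and 0.40 (days 5 and 6), and 0.18 and -0.10 (days 3 and 4). Those of different clones gave -0.14 and 0.25 (days 1 and 3), -0.26 and 0.20 (days 3 and 5), 0.48 and 0.26 (days 3 and 6), and -0.06 and -0.30 (days 4 and 6). Members share libraries and, in the near-identical pairs, possibly reads, so that these values are descriptions. Within the pair miR-300-3p and miR-381-3p the days diverged. miR-300-3p was at 36.6 in Trim-/- and 874 in Trimfl/fl on day 1, and at 386 and 524 on day 4, whereas miR-381-3p was at 2997 and 2947 on day 1 and at 1.00 and 7892 on day 4. Their sequences differ at 3 of 22 bases, and an exchange of reads between them was not tested.

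The clones were compared next. Fitted alone, clone 1 (3 pairs) had a median log2 fold change of -2.42 over the members, with 32 of 33 lower in Trim-/- and 16 past the thresholds downward, against 7.60% of all miRNAs. The 16 include miR-380-5p, miR-154-5p, miR-377-3p and miR-410-5p, which are in the table only through their Trimfl/fl mean, so that the filter favoured a lower value in Trim-/-. In clone E3 (2 pairs) the median was -0.73, with 29 of 33 lower and 9 past the thresholds, against 4.73% of all miRNAs, and 3 of these 9 were among the 13 of both clones together. The 9 include miR-410-5p, likewise in the table only through its Trimfl/fl mean. With 2 pairs a member's own spread is hardly measured, and the p-values lean on the spread that limma pools over all miRNAs. miR-381-3p passed there with log2 differences of -0.76 on day 3 and -11.95 on day 4. The difference between the clones was tested as an interaction of genotype and clone in limma. It was below 0, that is lower in clone 1, in 25 of the 33 members, with a median of -1.82. In 6 members the unadjusted p was under 0.05, against 5.57% of all miRNAs, and no member had an adjusted p under 0.05, against 0.169% of all miRNAs. The smallest adjusted p of a member was 0.627.

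The 6 members were miR-379-3p, miR-380-3p, miR-494-3p, miR-154-3p, miR-377-3p and miR-410-3p, all with the lower value in clone 1. Of these, miR-377-3p is in the table only through its Trimfl/fl mean. In miR-410-3p the mean difference was -6.36 in clone 1 and -0.44 in clone E3 (interaction -5.92 ± 1.20 SE, unadjusted p = 0.00378, adjusted p = 0.627 in limma). miR-154-3p had -4.51 in clone 1 and 0.04 in clone E3. Both sizes depend on the floor, which miR-410-3p reached on days 1 and 6 and miR-154-3p on day 6, and miR-380-3p and miR-377-3p were likewise floored on days 1 and 5. The opposite order was seen in 8 members, led by miR-381-3p, at -0.54 in clone 1 and -6.35 in clone E3, of which the floored day 4 value gives the larger part (interaction 5.82 ± 3.28, unadjusted p = 0.133). Clone and day cannot be told apart here, since no day holds both clones.

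**Figure D5:**
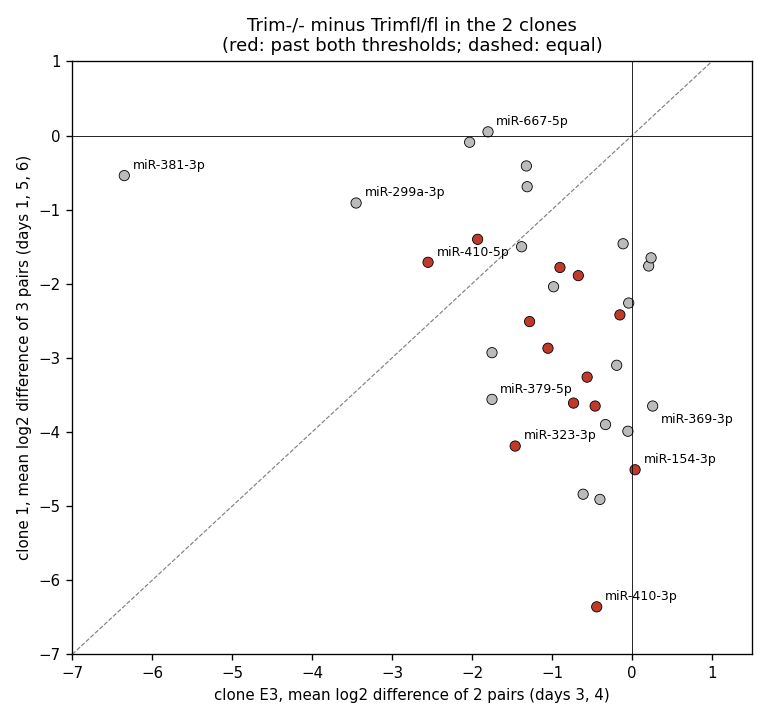
Mean log2 difference of Trim-/- minus Trimfl/fl in clone 1 (3 pairs, vertical axis) against clone E3 (2 pairs, horizontal axis) for the 33 members, with members past both thresholds in red and the line of equal differences dashed. Below that line lie 25 members, with the lowest value in clone 1 for miR-410-3p (-6.36), and miR-381-3p lies far to the left (-6.35 in clone E3).

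The rest of the Dlk1-Dio3 domain, which lies before Mir379 and includes the miRNAs antisense to Rtl1, is the nearest group of miRNAs in the genome. Its 14 listed members (among them miR-127, miR-136, miR-431, miR-433 and miR-434) were all lower in their fitted mean in Trim-/-, with log2 fold changes from -4.69 to -0.47 and a median of -1.93, and 6 passed the thresholds downward, against 4.56% of all miRNAs (miR-127-5p, miR-136-3p, miR-136-5p, miR-433-3p, miR-434-3p and miR-673-3p). The 6 became 3 without day 1, 3 without day 6 and 10 without the day block. Over all 592 miRNAs the lower calls were 11, 15 and 59 under these settings, and 27 in the main fit. The 14 summed to between 4955 and 8648 in Trimfl/fl and between 1591 and 5127 in Trim-/-. By day their median differences were -1.17, -0.73, -0.96, -0.49 and -3.33, so that day 6 was the lowest in both parts of the domain. Both parts were measured in the same libraries, and a difference between them was not tested.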

How the data were processed

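Small RNA libraries of mES cells were made with the NEBNext small RNA kit according to the study's methods, and the labels name an mRNA kit instead. Reads were processed with CASAVA 1.8 and aligned with Bowtie2 2.2.1, per the submitters' processing notes (mm10, Partek 6.6). The authors scaled the counts with DESeq2, removed a batch term, raised values under 1 to 1 and kept miRNAs whose larger group mean reached 10, so what was deposited is a signal in units of normalized reads, and the table used here gives no read depth. An additive correction keeps the untransformed difference within a pair where no value was floored, but it shifts the level of a day and so changes the difference on the log2 scale.

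Members and lists, named genes and motif were chosen with earlier results of these data known. Genotype and day were fitted over 592 miRNAs with limma 3.58.1 in R 4.3.3 (eBayes without trend) on log2(value + 1), with Benjamini-Hochberg adjustment, over the 10 paired libraries. The labels give the pairing, since a day joins 1 library of each genotype of the same clone. Across miRNAs, the 2 libraries of a day deviated from their genotypes' means in opposite directions (correlations of -0.65 to -0.41), which the equal same-day sums impose. Single members were also tested by two-sided exact permutation within days (32 patterns). The fit was tested on simulated data. Named were members past the thresholds, the 3 highest and the 3 nearest 0, the first and last member, hairpins with both arms and, chosen after their values were seen, those set beside them. The alternatives were no block, clone for day, all 11 libraries, each pair omitted, each clone alone, 3 scalings, pseudocounts of 0.1 and 10, untransformed and unfloored values, no floored miRNAs, a trend, and means of at least 30 and 100. DESeq2 was not run here, since the table used holds normalized values. Plots used matplotlib 3.10.9 and tables pandas 2.3.3 (Python 3.11.15).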

Additional observations from a re-analysis of the deposited data

Results flagged for a closer look

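In 7 of the 66 groups of 5 libraries (33 members in 2 genotypes) 1 library stood apart from the others on the log2(value + 1) scale by Dixon's ratio, the gap to the nearest library over the whole range, with a critical value of 0.71. Chance alone flags about 5% of independent, normally distributed groups. Here the 2 genotypes of a member mirror each other and the floor sets low values apart on the log2 scale, so that this share is no firm reference. All 7 were Trim-/- libraries at the floor of 1, and the rest of this paragraph gives the ratio, the value before the floor (the same-day sum minus the partner) and the log2 fold change without that pair.

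On day 6, miR-379-5p had a ratio of 0.774, a value of -119 before the floor and a log2 fold change of -0.90 without the pair. miR-411-5p had a ratio of 0.923, with -98.6 and -0.75. miR-382-5p had a ratio of 0.861, with -6.54 and -0.55. miR-134-5p had a ratio of 0.749, with -31.1 and -1.03. miR-329-3p had a ratio of 0.751, with 0.723 and -0.02, so that its lower mean in Trim-/- rests on day 6. On day 1, miR-376c-3p had a ratio of 0.770, with -28.0 and -0.93. On day 4, miR-381-3p had a ratio of 0.850, with -1949 and -0.59. None of the 7 passed the thresholds with all 5 pairs. Read counts cannot be negative, so that values under 0 carry the batch correction, and the reads behind them are unknown.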

How the results depend on the processing

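Of 646 values of single members under 21 alternatives, 528 kept direction and side of the thresholds, 34 lost the call, 79 gained it and 5 changed sign. In clone E3 alone, with the replicate block, miR-379-3p (0.21), miR-411-3p (0.24), miR-154-3p (0.04) and miR-369-3p (0.26) changed sign and the members' median moved to -0.73, and in clone 1 alone miR-667-5p did (0.05). The 13 members past the thresholds became 21 without the replicate block (2 at an adjusted p under 0.05) and with clone in place of day, 24 with all 11 libraries and no replicate block (6 at an adjusted p), 20 with libraries divided by their totals, with or without the members, 22 on untransformed values, 20 before the floor, 7 of 13 without floored values and 5 of 14 at a mean of at least 100. Over all 592 miRNAs the 27 lower calls became 59, 57, 71, 48, 44 and 44 under the first 6 of these (36 of 592 at an adjusted p with all 11 libraries, 9 without the block), and were 4.32% of miRNAs without floored values and 3.04% at a mean of at least 100. The day 2 library is a mean of others and adds no measurement to the fit with 11 libraries. The fits without the day block, also that with clone in place of day, treat the values of a pair as separate. Each pair holds 1 difference, so that the p-values of these fits are too small. Of the 13, all were among those past the thresholds without the block, 6 without day 1, 6 without day 6 and 3 in clone E3 alone. Leaving out 1 pair gave 6 to 14 members, the lowest without day 1 or day 6 and the highest without day 4. Without days 1, 3, 4, 5 and 6 in turn, the lower calls over all 592 miRNAs were 11, 22, 44, 22 and 15. Division by totals moved the median of all miRNAs to -0.24. The 6 members of the rest of the domain became 10 without the block, with clone in place of day, with all 11 libraries and no block, with division by totals (with or without the members), on untransformed values and before the floor, 3 of 7 at a mean of at least 100, and 3 to 6 with 1 pair left out. The cause of these shifts was not tested. No member passed upward under any alternative. Limits are 5 pairs with 1 difference each, 2 clones, unknown depth and a floor that 26 member values reached.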

Other observations

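Base composition was set beside the differences of each day. The 31 members with a sequence had a median GC content of 45.5%, against 47.6% over the 463 miRNAs with one. Across these 31 the GC content and the log2 difference had Spearman correlations of 0.30, -0.46, -0.45, 0.53 and -0.31 on days 1, 3, 4, 5 and 6, and across the rest of the 463 miRNAs 0.18, -0.02, -0.27, 0.13 and 0.09. The 9 members that were higher in Trim-/- on day 4 had a median GC content of 40.9%, and the others 47.6%. These values move with the order of the members on days 4 and 5, and their part in it was not tested.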
